A study of Mus musculus and Homo sapiens with 4 samples.

Results

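Transcripts of 27 genes of cholesterol and fatty acid synthesis were followed after knock-down of Merm1 (also Wbscr22, now BUD23), a methyltransferase of ribosomal RNA, in 2 tumour lines. The genes were a list chosen by function, with earlier results of these data known. A probe set belonged to a gene when the platform annotation gave it that symbol and no other. On the mouse array 26 of the 27 genes had such a probe set, among 18193 named genes, and on the human array 24 among 19773. LM8 is a mouse osteosarcoma line grown in MEM, and A375M is a human melanoma line grown in DMEM, both with fetal bovine serum. The groups were LM8/control and A375M/control, infected with the retrovirus pSIREN-RetroQ-control, and LM8/shRNA and A375M/shRNA, infected with pSIREN-RetroQ carrying a hairpin against mouse or human Merm1/Wbscr22. All 4 are stably infected lines, each group was 1 array, and neither the number of clones in a line nor the time after infection is given in the labels. Uninfected parental cells were not analysed here. Every value is a log2 RMA expression value of a probe set, and every difference is the knock-down array minus the control array of the same line. Differences within a line carry no error and no p-value, since nothing was replicated, and precision is limited by having 4 arrays.

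Cells make cholesterol from acetyl-CoA through mevalonate, farnesyl diphosphate, squalene and lanosterol, and make fatty acids from acetyl-CoA through malonyl-CoA. The transcription factors SREBP-1 and SREBP-2, the products of SREBF1 and SREBF2, switch on most of these enzymes. When sterols are abundant, INSIG proteins hold the SREBPs in the endoplasmic reticulum. When sterols are scarce the SREBPs are carried to the Golgi and cut, and the freed part enters the nucleus. SREBP acts at promoters together with the factors NF-Y, which binds the CCAAT box, and Sp1, which binds the GC box.

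The promoters of 6 members are shown because these members had the largest differences in A375M and LM8, taken from the lines in turn, among those with a listed promoter. That of Msmo1, which also met this rule, is counted but not printed. RefSeq promoters were listed for mouse only, and 22 of the 27 members had one, so the sequences stand beside the human values as those of the mouse orthologue. Each runs 5′ to 3′ on the gene's strand from 250 bases before to 50 bases after the annotated start (GRCm38.p6). Capitals mark matches on either strand to the CCAAT box (CCAAT), the GC box (GGGCGG), the E-box (CACGTG) and a sterol regulatory element core (TCACNCCAC).
Insig1 (chr5:28071162-28071461, plus strand): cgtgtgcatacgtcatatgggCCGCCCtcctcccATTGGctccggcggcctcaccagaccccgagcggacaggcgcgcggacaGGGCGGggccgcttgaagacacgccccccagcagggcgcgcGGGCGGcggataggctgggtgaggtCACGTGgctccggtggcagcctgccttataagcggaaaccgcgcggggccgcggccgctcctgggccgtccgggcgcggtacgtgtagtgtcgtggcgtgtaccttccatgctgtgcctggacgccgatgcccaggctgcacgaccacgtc
Hsd17b7 (chr1:169969156-169969455, minus strand): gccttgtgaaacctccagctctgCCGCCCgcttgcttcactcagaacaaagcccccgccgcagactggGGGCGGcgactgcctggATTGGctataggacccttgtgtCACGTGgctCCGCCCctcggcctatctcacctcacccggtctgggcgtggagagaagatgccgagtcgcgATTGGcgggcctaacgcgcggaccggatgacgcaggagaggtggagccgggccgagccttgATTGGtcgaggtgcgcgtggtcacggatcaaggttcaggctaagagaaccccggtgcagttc
Acly (chr11:100527951-100528250, minus strand): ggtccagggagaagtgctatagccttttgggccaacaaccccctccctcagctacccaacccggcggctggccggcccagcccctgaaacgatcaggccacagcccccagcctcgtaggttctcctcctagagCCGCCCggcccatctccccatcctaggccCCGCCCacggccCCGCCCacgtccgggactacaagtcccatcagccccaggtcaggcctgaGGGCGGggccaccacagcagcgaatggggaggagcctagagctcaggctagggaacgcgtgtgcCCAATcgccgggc
Pmvk (chr3:89454291-89454590, plus strand): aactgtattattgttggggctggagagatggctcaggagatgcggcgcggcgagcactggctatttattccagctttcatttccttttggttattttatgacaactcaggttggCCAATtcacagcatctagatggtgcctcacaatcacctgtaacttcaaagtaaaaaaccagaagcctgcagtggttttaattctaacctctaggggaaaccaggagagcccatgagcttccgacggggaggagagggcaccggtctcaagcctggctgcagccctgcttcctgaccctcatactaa
Ebp (chrX:8193463-8193762, minus strand): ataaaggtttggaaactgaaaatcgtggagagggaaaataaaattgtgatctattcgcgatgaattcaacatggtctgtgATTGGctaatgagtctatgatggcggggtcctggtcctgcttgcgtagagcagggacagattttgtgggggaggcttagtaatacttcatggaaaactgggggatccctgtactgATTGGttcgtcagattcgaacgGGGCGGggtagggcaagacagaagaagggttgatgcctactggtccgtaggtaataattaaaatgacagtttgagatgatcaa
Mvk (chr5:114444019-114444318, plus strand): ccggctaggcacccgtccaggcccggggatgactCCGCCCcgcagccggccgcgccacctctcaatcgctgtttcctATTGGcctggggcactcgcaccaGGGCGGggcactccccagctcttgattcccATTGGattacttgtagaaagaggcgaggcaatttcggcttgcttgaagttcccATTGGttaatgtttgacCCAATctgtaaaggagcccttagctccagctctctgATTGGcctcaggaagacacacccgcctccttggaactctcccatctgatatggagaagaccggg

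Over the 22 mouse member promoters (the first listed start of each gene), 17 held CCAAT and 17 held GGGCGG, or 77.3% each. Over all 27025 genes with a listed promoter the shares were 37.9% and 35.9%. All 6 printed promoters held CCAAT, and all but that of Pmvk held GGGCGG. The Mvk window held 5 CCAAT matches, the Hsd17b7 window held 3 and the Ebp window 2. The element core TCACNCCAC was found only in the Hmgcs1 promoter among the members, as TCACCCCAC starting 137 bases before the start, and in 1.22% of all promoters. CACGTG was found in the promoters of Insig1, Hsd17b7 and Sc5d, 3 of 22, against 7.24% of all. These are letter matches, not measured binding sites.

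The target gene was lower in both knock-down arrays. Bud23 read 10.61 in LM8 control and 8.48 in knock-down, and the bright BUD23 probe set read 10.70 and 8.38 in A375M. A second, dim human probe set read 3.28 and 3.16, and the mean of both differed by -1.22. Of the osteoblast markers measured on the mouse arrays, 7 of 7 lay above the array median in both LM8 arrays, and of the melanocyte markers 7 of 8 did so in both A375M arrays. The lists did not fully part the lines. Osteoblast markers lay above the array median at 4 of 8 in A375M control and 5 of 8 in knock-down, and melanocyte markers at 3 of 9 in each LM8 array. In A375M control MLANA read 4.84, near the array median of 4.64, and PMEL 5.42. The median difference of the hybridisation spike-ins was -0.00045 for LM8 and 0.056 for A375M. Their differences ran from -0.081 to 0.087 in LM8 and from 0 to 0.28 in A375M. For the transcripts spiked in before labelling the median was 0.14 in LM8 and 0.017 in A375M. The range of these was -0.19 to 0.25 in LM8 and -0.033 to 0.31 in A375M. In A375M the highest value of each kind exceeded 1.2-fold, the threshold used below, and the lowest did not reach it. The signal of GAPDH probe sets at the 3′ end minus that at the 5′ end was -0.18 in both LM8 arrays, and 0.091 in control and 0.10 in knock-down in A375M. The same measure for actin was 0.35 and 0.34 in LM8, and 0.91 in control and 1.00 in knock-down in A375M. The part of these values in the differences below was not tested.

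A gene was represented by its brightest probe set and was kept when that probe set exceeded the array median in at least 1 array. All 26 mouse and all 24 human members passed, as did 11646 and 13244 genes in all. A difference was counted when it reached 1.2-fold (0.26 on the log2 scale). As a technical gauge, the SD of the differences between the probe sets of 1 gene was typically 0.12 in LM8 and 0.071 in A375M (medians over genes). That gauge holds no spread between cultures. In RNA from a whole culture, fewer cells expressing a gene and less of its RNA per cell cannot be told apart.

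In A375M the synthesis genes were more often lower than higher in the knock-down array. Outside the fatty acid group were 13 of the 14 lower genes, as were 19 of all 24 members. Of 24 members 14 were below the control array, 6 were above it and 4 were identical, and the median difference was -0.062. Over all kept genes 40.3% were below the control array and 29.0% above, with a median of 0. At least 1.2-fold lower were 5 members (20.8%), INSIG1, STARD4, ACLY, MSMO1 and HSD17B7, against 4.67% of all kept genes. At least 1.2-fold higher were 0 members, against 3.21%. Because the list was chosen with earlier results of these data known, these shares are a description and not a test. The split of members moved to 14 below and 10 above after quantile normalization was repeated, when 36.6% of all kept genes were below and 57.1% above. After removal of a loess curve it was again 14 and 10, beside 46.0% and 54.0%, and after centring each array on its median 20 and 4, beside 77.0% and 23.0%. After the quantile step the number at least 1.2-fold lower was 2 of 24, INSIG1 and STARD4, against 464 of all 13244 kept genes, and the 5 lay between -0.21 and -0.38. No member reached 1.5-fold, a threshold for which the share of all kept genes is not given here.

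In LM8 the same genes showed no common direction. Of 26 members 13 were below the control array and 13 above, with a median of 0.0085, beside 46.0% below, 53.8% above and a median of 0.015 over all kept genes. At least 1.2-fold lower were 0 members, against 7.58% of kept genes, and at least 1.2-fold higher was 1, Hsd17b7, against 8.85%. The members ran from -0.24 for Pmvk to 0.32 for Hsd17b7, and all 26 lay within the middle 90% of the kept genes, which reached from -0.33 to 0.34.

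**Figure D1:**
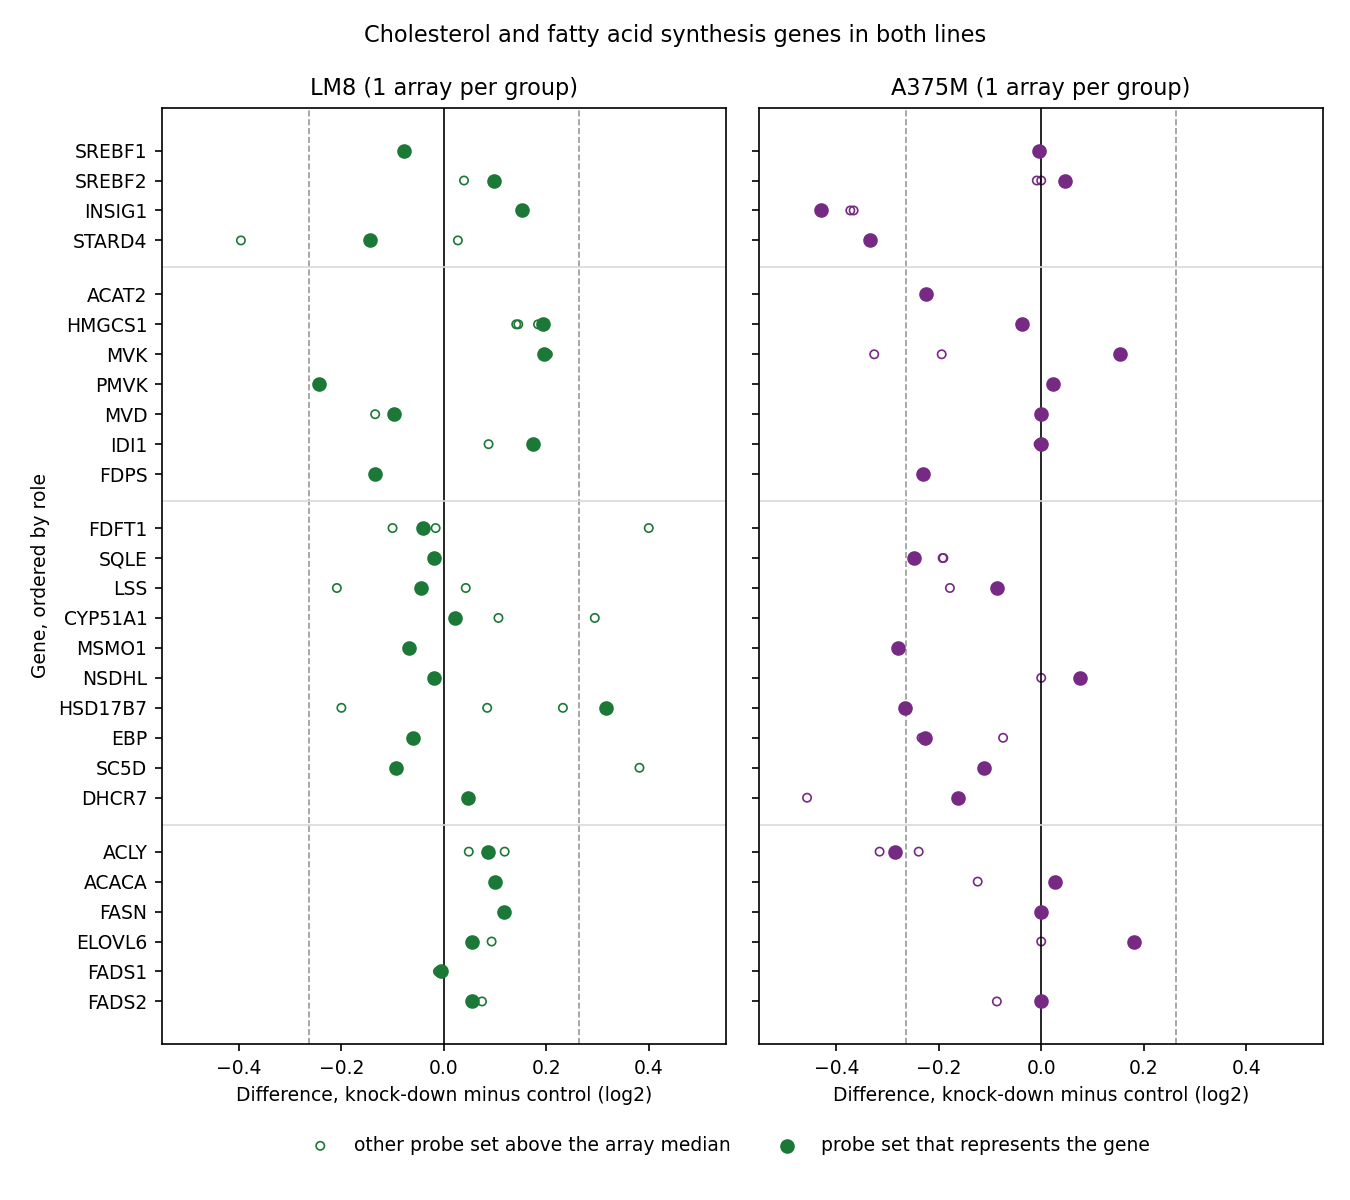
Difference between the knock-down and the control array (log2, x axis) for each gene, ordered by role, in LM8 (left) and A375M (right), with 1 array per group. Filled points are the probe set that represents the gene, open points its other probe sets above the array median, and dashed lines mark 1.2-fold. In A375M 5 filled points lie at or left of the left dashed line and none right of the right one. In LM8 1 filled point, HSD17B7, lies beyond a line.

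Single probe sets were counted as well. In A375M 46 of the members' 54 probe sets exceeded the array median, and 10 of them (DHCR7 and MVK among their genes) were at least 1.2-fold lower against 5.93% of all such probe sets on the array, while 0 were at least 1.2-fold higher against 3.29%. In LM8 52 of 61 did, of which 20 were below the control array and 32 above, where the genes had divided evenly. Of all 23099 such LM8 probe sets 11265 were below and 11784 above. Probe sets of 1 gene are not independent, and Hmgcs1 gave 4 of those 32. At least 1.2-fold lower was 1 of the members' 52 against 10.2%, and 4 were at least 1.2-fold higher against 9.40%. Of 15 members with several such probe sets in A375M, 6 were lower on all of them (ACLY, DHCR7, EBP, INSIG1, LSS and SQLE), 0 were higher on all, 3 had both signs and the other 6 had identical values on some or all. Of all 6265 such human genes 18.2% were lower on all and 7.71% higher on all. In LM8 15 members had several, of which 2 were lower on all (FADS1 and MVD), 8 higher on all and 5 had both signs, beside 24.5%, 26.5% and 48.6% of 5313 genes.

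Among the genes of sterol control, the transcription factor genes differed little and INSIG1 and STARD4 were lower in A375M. The median over the 4 genes was -0.17 in A375M, with 3 below the control array, and 0.0097 in LM8, with 2 below. The LM8 median was -0.0052 after repeated quantile normalization, -0.0054 after loess and -0.0047 with probe sets averaged, so it has no settled sign. INSIG1, which encodes the sterol-dependent anchor of SREBP and is itself an SREBP target, read 9.28 in A375M control and 8.85 in knock-down on its brightest probe set. The difference was -0.43, or 1.35-fold lower, and its 3 probe sets lay between -0.43 and -0.37. In LM8 the single Insig1 probe set read 9.80 and 9.95, a difference of 0.15. INSIG1 thus had the lowest difference of the members in A375M and a difference of the other sign, within 1.2-fold, in LM8.

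STARD4, a cytosolic sterol transfer protein gene, read 9.06 in A375M control and 8.73 in knock-down, 1.26-fold lower, on 1 probe set. In LM8 its representative probe set read 9.48 and 9.33, a difference of -0.14. The other mouse Stard4 probe sets disagreed, at -0.40 and 0.028, so the size in LM8 depends on the probe set. SREBF1 read 7.90 in both A375M arrays (-0.0035) and 9.43 and 9.35 in LM8 (-0.078). SREBF2 read 7.25 and 7.30 in A375M (0.046) and 9.93 and 10.03 in LM8 (0.097). Transcript levels of the SREBF genes do not measure how much SREBP is cut, which was not assayed.

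The mevalonate and isoprenoid enzymes were divided in both lines. In A375M 3 of 7 were below the control array, 2 above and 2 identical, with a median of 0. FDPS, which makes farnesyl diphosphate, read 10.11 in control and 9.88 in knock-down, a difference of -0.23. ACAT2, whose product joins acetyl-CoA units at the entry to the pathway, read 8.33 and 8.11, a difference of -0.22. Both are single probe sets that stopped short of 1.2-fold. HMGCS1, the HMG-CoA synthase gene, differed by -0.038, with 5.96 in knock-down, and PMVK, a phosphomevalonate kinase gene, read 8.48 and 8.50.

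MVK, which encodes mevalonate kinase, had human probe sets of both signs. Its brightest read 7.33 and 7.49 (0.15), and its other probe sets above the array median differed by -0.33 and -0.19, so no direction is given for it. MVD, the mevalonate decarboxylase gene, and IDI1, the isopentenyl diphosphate isomerase gene, had identical values in both A375M arrays. For MVD that value, 5.19, was shared by 181 probe sets in control and 193 in knock-down.

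In LM8 3 of 6 were below the control array and 3 above, with a median of 0.038. Hmgcs1 read 11.87 and 12.06 on its brightest probe set, and its 4 probe sets above the array median were 0.14 to 0.19 higher. Mvk read 8.66 and 8.86, with both probe sets 0.20 higher, and Idi1 read 11.06 and 11.24 (0.17), with the other probe set at 0.087. Pmvk read 8.59 and 8.35, a difference of -0.24, Fdps 12.44 and 12.31 (-0.13), and Mvd 8.45 and 8.35 (-0.098). Enzymes of neighbouring steps therefore differed in opposite directions in LM8, all by less than 1.2-fold.

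The squalene and sterol enzymes had a median of -0.19 in A375M over 8 genes, of which 7 were below the control array. With probe sets averaged the median was -0.15. MSMO1, a methylsterol monooxygenase gene, read 9.16 in control and 8.88 in knock-down, 1.21-fold lower (-0.28), on 1 probe set. HSD17B7, a sterol ketoreductase gene, read 8.33 and 8.06, and its difference of -0.27 only just reached 1.2-fold. Its only human probe set carries the suffix for probes shared with other transcripts. SQLE, the squalene epoxidase gene, read 8.77 and 8.52 (-0.25), and its 3 probe sets above the array median lay between -0.25 and -0.19. EBP, a sterol isomerase gene, read 8.73 and 8.50 (-0.23), and its 3 lay between -0.23 and -0.074.

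DHCR7, which encodes the reductase of the final step, read 7.58 and 7.42 (-0.16) on its brighter human probe set and differed by -0.46 on the other, the lowest of any member probe set. With the mean of its probe sets DHCR7 was at -0.31, which is past 1.2-fold. SC5D, a sterol desaturase gene, read 9.63 and 9.51 (-0.11), and LSS, the lanosterol synthase gene, 8.12 and 8.04 (-0.085). NSDHL, a sterol dehydrogenase gene, was the member of this group above its control, at 7.03 and 7.11 (0.075), with its other probe set identical in both arrays. Human FDFT1 was not analysed here.

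In LM8 7 of the 10 squalene and sterol genes were below the control array, by at most 0.093, and the median was -0.030, or 0.015 with each gene's probe sets averaged. Hsd17b7 read 9.09 in control and 9.41 in knock-down, 1.25-fold higher. This probe set carries the same suffix, and the others differed by 0.23, 0.085 and -0.20, with a mean over all 4 of 0.11. Cyp51, which encodes the lanosterol demethylase CYP51A1, read 11.23 and 11.25 on its brightest probe set and was 0.023 to 0.29 higher over 3. Sc5d read 10.82 and 10.73 (-0.093), with another probe set at 0.38. Fdft1, the squalene synthase gene, read 10.82 and 10.78 (-0.041), with a dim probe set at 0.40. Msmo1 (-0.068), Ebp (-0.061), Lss (-0.045), Nsdhl (-0.020), Sqle (-0.019) and Dhcr7 (0.048) also lay within the gauge for LM8.

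**Figure D2:**
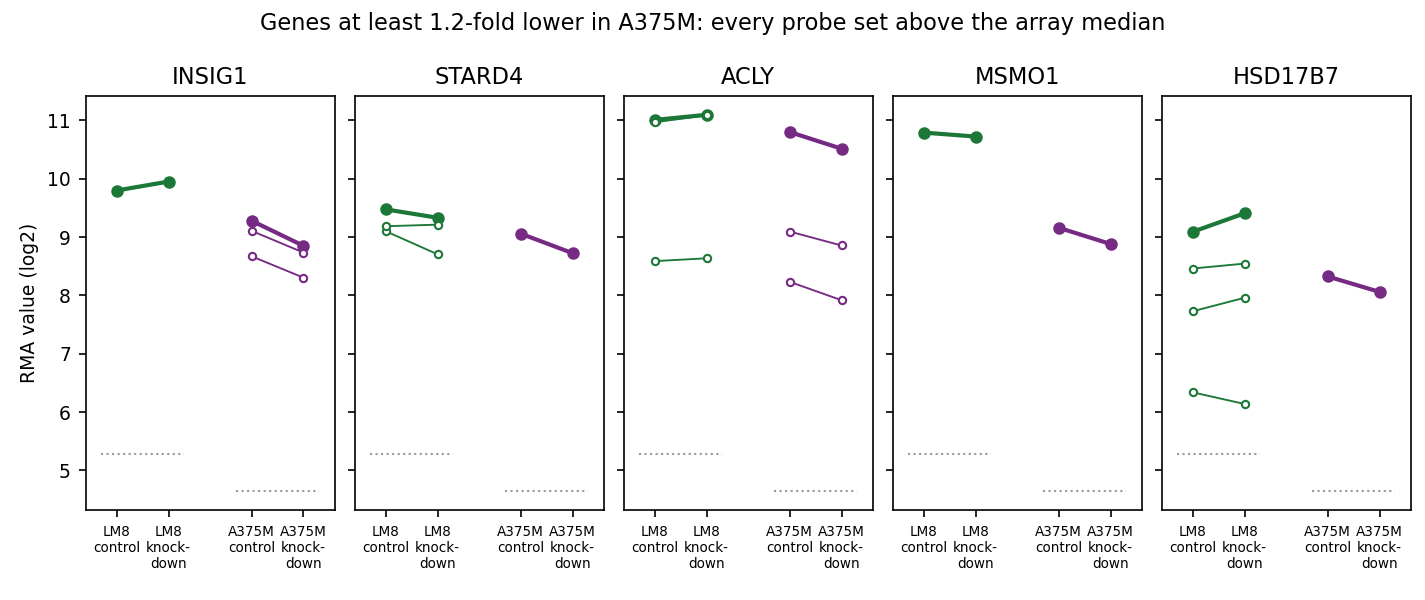
RMA values (log2, y axis) in each array for the 5 genes at least 1.2-fold lower in A375M, with LM8 in green and A375M in purple. Each line joins a probe set's control and knock-down value, the thick line is the probe set that represents the gene, and dotted lines mark the median of the control array. All A375M lines of these genes slope down. In LM8 the INSIG1 line, all 3 ACLY lines, 3 of the 4 HSD17B7 lines and 1 of the 3 STARD4 lines slope up, and the others slope down. Heights of different probe sets are not comparable.

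The fatty acid enzymes were not lower as a group in A375M. Of 5 genes 1 was below the control array, 2 above and 2 identical, with a median of 0. ACLY, whose product makes cytosolic acetyl-CoA from citrate and so feeds both branches, read 10.80 in control and 10.52 in knock-down. Its difference was -0.29, or 1.22-fold lower, and its 3 probe sets, all with the suffix for probes shared between transcripts, lay between -0.32 and -0.24. FASN, the fatty acid synthase gene, read 8.71 in both arrays. ACACA, the acetyl-CoA carboxylase gene, read 8.62 and 8.65 (0.027), with another probe set at -0.12. ELOVL6, a fatty acid elongase gene, read 8.04 and 8.22 (0.18), the highest difference of the members in A375M, with its other probe set above the array median identical. FADS2, a fatty acid desaturase gene, read 6.22 in both arrays on its brighter probe set.

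In LM8 5 of 6 fatty acid genes were above the control array, each by at most 0.12, and the median was 0.071. Fasn read 10.40 and 10.52 (0.12), Acaca 9.27 and 9.37 (0.099) and Acly 11.01 and 11.10 (0.087). Elovl6 (0.056) and Fads2 (0.055) were higher on every probe set above the array median, and Fads1, a fatty acid desaturase gene, read 11.42 in both arrays (-0.0056). Of these only the Fasn difference reached the gauge for LM8.

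Recurring values limit what the human table can show for small differences. The 54675 human values took 19982 distinct values in control and 17640 in knock-down, and the 45101 mouse values took 40976 and 41017. Of the members' 54 human probe sets 15 (27.8%) had exactly equal values in both arrays, against 45.4% of the human table, and of their 61 mouse probe sets 0 did. The FADS2 value of 6.22 was held by 66 probe sets in each array, and the FASN value of 8.71 by 9 and 6. An equal value of this kind says that the deposited values are the same, not that the transcript was measured as unchanged. None of the 5 genes at least 1.2-fold lower had equal values in both arrays on the probe set that represents it, but several values recurred within an array. The control value of INSIG1 was held by 5 probe sets and that of MSMO1 by 7, and the knock-down value of STARD4 by 11 and that of ACLY by 2.

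**Figure D3:**
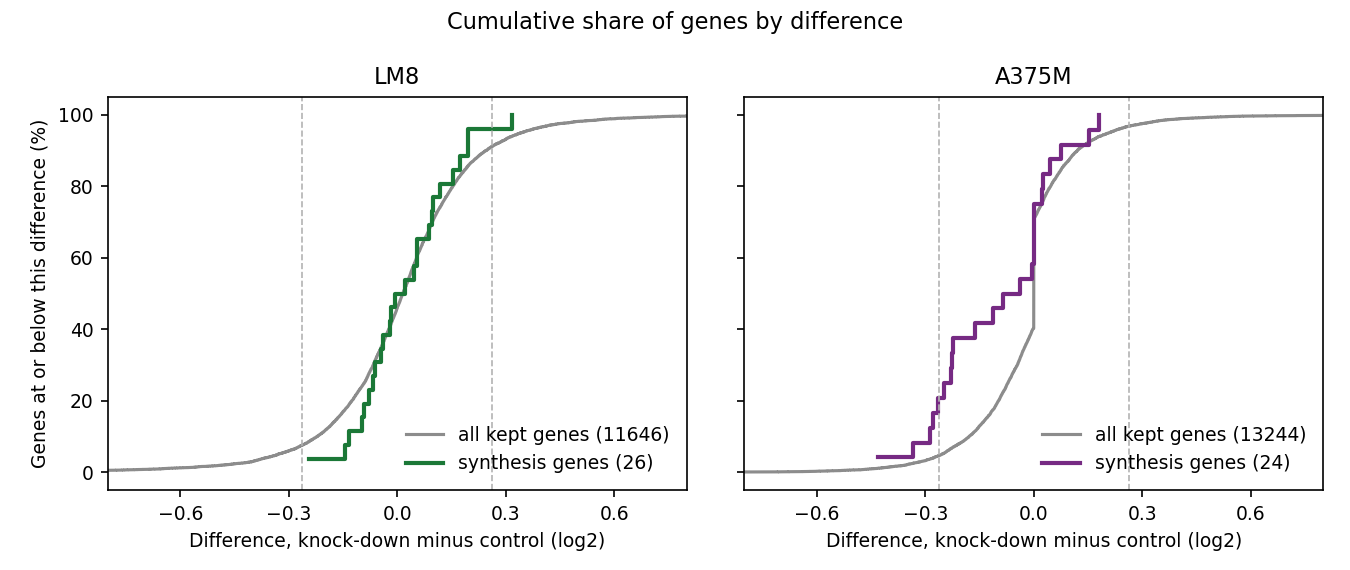
Share of genes (%, y axis) at or below a given difference between knock-down and control array (log2, x axis), for all kept genes in grey and the synthesis genes in colour, in LM8 (left) and A375M (right), with dashed lines at 1.2-fold. In A375M the coloured curve stands above the grey one from its lowest gene, INSIG1 at -0.43, through 0. Above 0 the curves lie closer together than just below 0. At or below the left line are 20.8% of the synthesis genes and 4.67% of all kept genes. The vertical step at 0 in A375M is made of identical values.

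The lines were also compared gene by gene. Of 23 members kept in both lines, 8 were below their control in both, 4 above in both, 5 above in LM8 and below in A375M, 2 the other way, and 4 identical in A375M. Over the 8981 genes kept in both lines, 2152 were above in LM8 and below in A375M and 1089 the other way, so opposite signs were no more frequent among the members. With probe sets averaged per gene they were more frequent, in 12 of 23 members, beside 2124 and 1218 of 7986 genes, so this comparison depends on the setting. With the brightest probe sets the A375M difference lay below the LM8 difference in 18 of 23, beside 58.6% of the 8981 genes. After repeated quantile normalization it did so in 13 of 23, beside 4426 of 8981. When limma was fitted to the average of the LM8 and A375M differences, so that the lines of both species serve as replicates, 0 of the 23 members had a Benjamini-Hochberg adjusted p under 0.05, against 0.0111% of genes, namely the target gene alone. Without adjustment 1 member, STARD4, had a p under 0.05, against 3.10% of all genes. STARD4 was lower in both lines, with a mean difference of -0.24 (SE 0.090) and a limma adjusted p of 0.99. The fit had 1 residual degree of freedom per gene before the spread was pooled across genes, so a missing call says little.

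**Figure D4:**
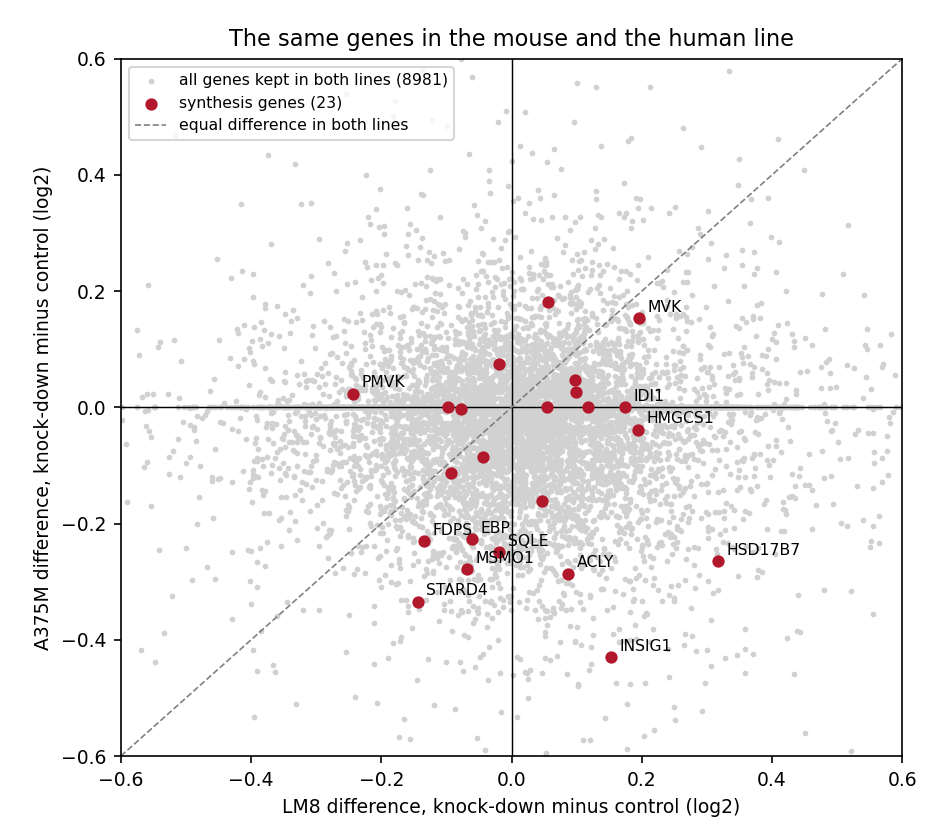
Difference in LM8 (x axis) against difference in A375M (y axis), both log2 knock-down minus control, for 23 synthesis genes in red and all 8981 genes kept in both lines in grey, with genes beyond 0.6 outside the plot. The dashed diagonal marks equal differences, and 18 of the 23 red points lie below it. In the lower right part, higher in LM8 and lower in A375M, lie 5 red points, among them INSIG1, HSD17B7 and ACLY.

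Other genes of sterol and fatty acid metabolism were read from 5 further lists, of which some genes are not analysed here. In LM8 34 of 36 measured genes were kept, with 15 below and 19 above the control array and a median of 0.012. At least 1.2-fold lower were 2 of them, against 7.58% of all kept genes, and at least 1.2-fold higher 1, against 8.85%. Insig2, the second INSIG gene, read 8.98 in control and 8.33 in knock-down, a difference of -0.64, and its 3 probe sets lay between -0.64 and -0.25. Mylip, which encodes a ubiquitin ligase that degrades lipoprotein receptors and is induced by the sterol-sensing LXR receptors, read 9.66 and 10.04 (0.38). Acsl3, a fatty acyl-CoA synthetase gene, read 9.88 and 9.60 (-0.28) but had probe sets from -0.33 to 0.33. Next in size were the malic enzyme gene Me1 (-0.20), the sterol reductase gene Lbr (0.20) and the desaturase gene Scd1 (-0.20).

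In A375M 33 of 34 measured genes of these lists were kept, with 15 below, 11 above and 7 identical, and a median of 0. At least 1.2-fold lower were 3 of them, against 4.67% of all kept genes, and at least 1.2-fold higher 2, against 3.21%. APOE, an LXR target gene that encodes a sterol-carrying apolipoprotein, read 8.59 in control and 9.15 in knock-down, a difference of 0.56, and its 3 probe sets were 0.34 to 0.67 higher. ABCA1, a cholesterol exporter gene that is also an LXR target, read 6.54 and 6.24 (-0.30), and its other probe set differed by -0.64. The LXR targets therefore did not share a direction. SCD, a desaturase gene and SREBP-1 target, read 10.53 and 10.23 (-0.31), and its 4 probe sets lay between -0.64 and -0.22. Neither APOE nor SCD had a value left without probe sets marked as shared. ACACB, a second carboxylase gene, read 6.65 and 6.98 (0.33), with 5 probe sets from 0 to 0.39. SCARB1, a lipoprotein receptor gene, read 10.21 and 9.95 (-0.27), but its 3 probe sets reached from -0.27 to -0.062, and MYLIP differed by 0.18, with 5 probe sets from -0.0071 to 0.18 and a value of 0 without probe sets marked as shared. INSIG2 read 7.05 in both A375M arrays.

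Markers of cell types with high lipid synthesis were read on the same arrays. The summed log2 values of 6 adipocyte markers were 27.7 in LM8 control and 28.1 in knock-down, with 1 above the array median, and those of 7 in A375M were 38.7 and 39.4, with 3 above it, LPL, ADIPOR2 and CIDEC. The hepatocyte markers summed to 24.2 and 24.6 over 5 genes in LM8, with 2 above the array median, and to 18.7 and 18.8 over 5 in A375M, with 1 above it. ADIPOQ and ALB, the defining genes of these types, lay below the array median in all 4 arrays. LPL was bright in A375M, at 11.10 in control and 11.37 in knock-down (0.27, past 1.2-fold), with its 2 probe sets at 0.27 and 0.28. ADIPOR2 and CIDEC had identical values in both A375M arrays. Most of the other markers lay below the array median, where a difference in the sum cannot be read. The part of all these markers in the members' differences was not tested.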

How the data were processed

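RNA from 4 stably infected cell lines was hybridised as biotinylated cRNA to Affymetrix arrays, per the labels' protocols, and the authors deposited log2 values per probe set made with RMA. The method is named per the submitters' processing notes, without a version. RMA as usually run sets arrays to one distribution. The deposited arrays had medians of 4.64 and 4.67 in A375M and of 5.29 and 5.28 in LM8. Values of both lines moved when quantile normalization was repeated, so neither pair of arrays was on one distribution. The members and lists were chosen with earlier results of these data known. Symbols came from the platform annotation, with mouse symbols updated through RefSeq (GRCm38.p6). A single symbol was attached to 34945 of 45037 mouse and 41091 of 54613 human probe sets other than controls. Those with several symbols (932 mouse, 1801 human) or without any (9160, 11721) were assigned to no gene.

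Named are all members, the target gene and up to 6 other pathway genes per line with the largest differences. Within a line no test was made. The mean difference of both lines was fitted in limma 3.58.1 (R 4.3.3) with the line as a block, over 8981 genes, with Benjamini-Hochberg adjustment. The alternatives were no filter or a filter at the 70th percentile, median centring, a repeat of quantile normalization, loess smoothing with span 0.4, averaging all probe sets per gene, leaving out probe sets ending in _x_at or _s_at (marked as shared), 32 added to the linear value, 1.5-fold and 2-fold, and the median without fatty acid genes. The computations were tested on simulated data. Some genes of the lists are not reported here.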

Additional observations from a re-analysis of the deposited data

Results flagged for a closer look

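The lines differed in sign for 7 of the 23 members kept in both. Of 8981 genes in all 2152 were higher in LM8 and lower in A375M and 1089 the other way, so opposite signs were no more frequent among the members. With probe sets averaged per gene they were more frequent, in 12 of 23 members, beside 2124 and 1218 of 7986 genes. With 1 array per group the difference between the lines was not tested. HSD17B7 differed by 0.32 in LM8 and by -0.27 in A375M. Its 4 probe sets in LM8 ran from -0.20 to 0.32, and the LM8 value was 0.11 with probe sets averaged and 0.085 without probe sets marked as shared. INSIG1 differed by 0.15 in LM8 and by -0.43 in A375M. The median over the kept members was 0.0085 in LM8 and -0.062 in A375M. The distance between these medians was not tested.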

How the results depend on the processing

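In A375M the number of members at least 1.2-fold lower (5) was 2 after repeated quantile normalization (464 of all 13244 kept genes). It was 3 without probe sets marked as shared (4.89% of all), where 15 members were left, and 3 with 32 added (2.96% of all). After loess it was 4 (4.27% of all), after median centring 6 (6.36%) and with probe sets averaged 6 (2.64%). At 1.5-fold and at 2-fold it was 0. The number above the control array (6) was 10 after repeated quantile normalization and 10 after loess. In LM8 the number at least 1.2-fold higher (1) was 0 when probe sets were averaged per gene, against 6.71% of all kept genes. Without marked probe sets it was 0 against 8.79%. At 1.5-fold and at 2-fold it was also 0, where the share of all kept genes is not given here for either line. The cause of these shifts was not tested where the alternative does not itself raise the threshold or remove probe sets. The A375M median stayed below 0, between -0.11 and -0.029, and the LM8 median ran from -0.030 to 0.054. The fit over both lines gave 0 members with an adjusted p under 0.05 under each of its 8 alternatives. Neither the target gene nor a named member or other pathway gene past 1.2-fold changed sign under a setting that left it a value. This leaves out the cell type markers, LPL among them. Centring the arrays put 77.0% of all kept A375M genes and 20 of 24 members below control. With 1 array per group no replicate could be left out.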

Other observations

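Human probe sets that carry a member's symbol together with another symbol entered no count. The pair annotated to both LRRD1 and CYP51A1 differed by -0.064 and -0.36 in A375M, and the 3 annotated to both MIR1908 and FADS1 differed by -0.084, -0.076 and -0.013. All 5 were lower in the knock-down array.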
